A study of Mus musculus with 59 samples.

Results

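The first cleavage of untreated cloned mouse embryos was described as the difference between early 2-cell and 1-cell embryos. Members were the genes with at least 1 FPKM (fragments per unit of transcript length and of sequenced library) in either stage, which gave 10117 of the 24421 genes in the table, or 41.4%. Of these, 8779 reached 1 FPKM in both stages, 640 in 1-cell embryos alone and 698 in early 2-cell embryos alone. A gene's difference is log2(FPKM + 1) at the early 2-cell stage minus the same at the 1-cell stage, and a difference of 1 or more either way is called 2-fold here.

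The embryos are clones made by somatic cell nuclear transfer, or SCNT: an oocyte without its chromosomes receives a body cell nucleus and is then activated. Both groups carry the strain label BDF1 and the treatment label WT, and no allele, injected RNA or drug is given for them. Cumulus cells, the follicle cells around the oocyte, are named as SCNT donor cells in the labels of the chromatin samples, which were not analysed here. The 1-cell embryos were collected 13 to 14 h and the early 2-cell embryos 20 to 21 h after activation, with 5 poly(A) RNA libraries listed for each, without zona pellucida and polar bodies. The protocol text names C57BL/6n females of 5 to 7 weeks as an oocyte source, and the number of embryos in a library is not given in the sources used here. Late 2-cell embryos (33 to 34 h), untreated or exposed to the histone deacetylase inhibitor trichostatin A (TSA), are quoted for later levels. The table holds 1 value per gene and group. No difference below therefore has a standard deviation, a p-value or a replicate check, and sequencing depth is unknown. FPKM are relative to the rest of a library, and fewer cells of a type cannot be told apart from less RNA per cell.

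An oocyte stores mRNA during growth and stops transcription before ovulation, so the first cell cycle runs largely on maternal messages. These are translated, shortened at their poly(A) tails and degraded in a fixed order, and transcription of the embryo's own genes begins at a low level before the first division and at a high level in the 2-cell embryo. In cloned embryos the incoming nucleus belonged to a differentiated cell and has to take up this programme. A poly(A) library also responds to tail length, because a message with a short tail is captured less well, whether or not it is degraded.

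Most genes differed little across the division. The median difference was -0.08, the quartiles were -0.45 and 0.26, and 6412 genes (63.4%) lay within 0.5 of 0. Among all members 376 were 2-fold higher after cleavage (3.72%) and 720 were 2-fold lower (7.12%), and these 2 shares are the background for every count below. Differences of 3 or more were found in 5 genes on the higher side and 7 on the lower side. Scaling the columns to a common median ratio gave 456 higher and 588 lower genes, and quantile normalization gave 462 and 550, so the excess of lower genes is smaller under these scalings. Rescaling both columns to the same sum made it larger, with 362 and 788. Between early and late 2-cell embryos, which share the early column with this comparison, 47.9% of 12794 genes were 2-fold higher and 10.9% lower, 58.8% in all. Genes at the edge of the 1 FPKM filter can differ by little on this scale: Atf3, just inside it, stood at 0.973 FPKM before and 1.00 after cleavage, and Slc12a8, just outside, at 1.00 (rounded) and 0.802. Over the 5 genes on each side the differences ran from -0.47 (Ifit1bl1, inside) to 0.73 (Aloxe3, outside).

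**Figure D1:**
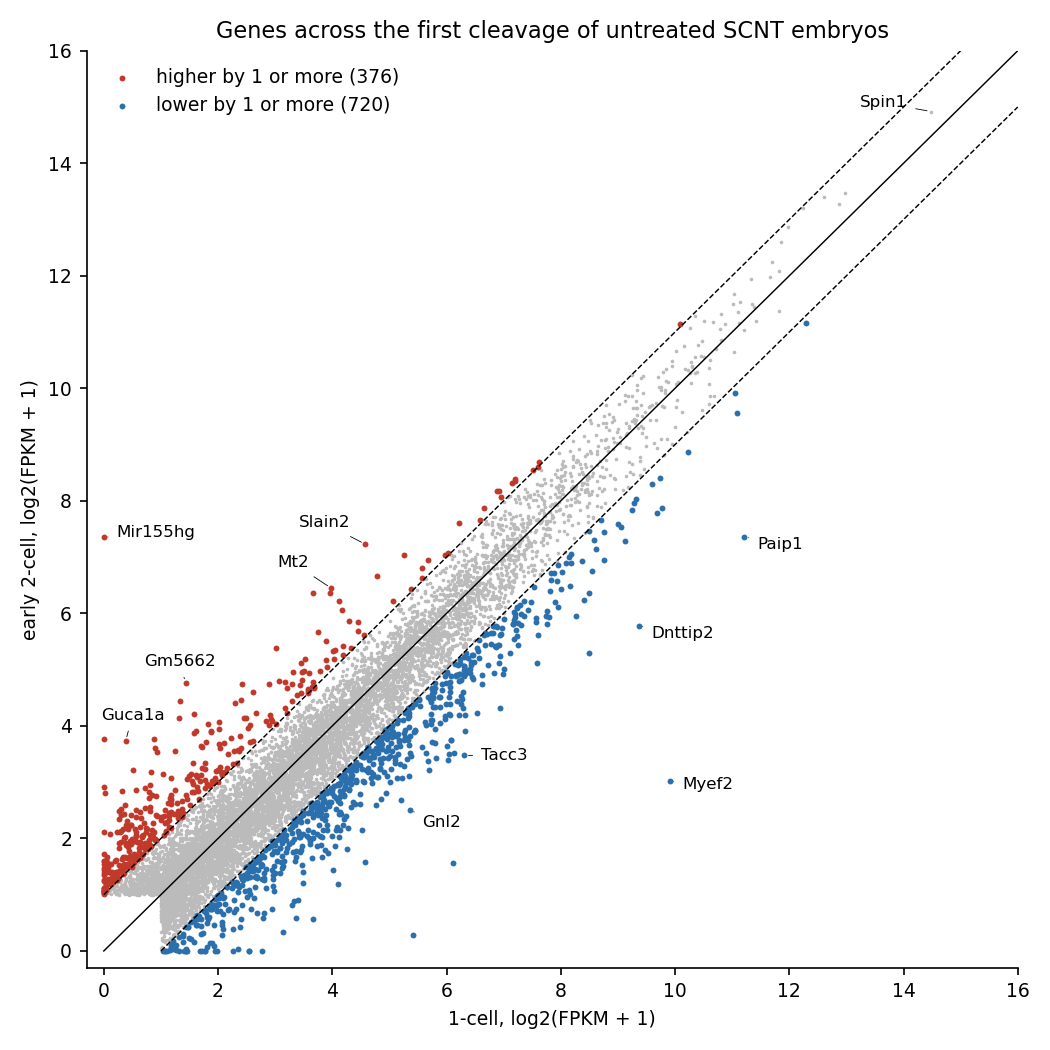
Each point is 1 of the 10117 genes, with its level in 1-cell embryos (x axis) and early 2-cell embryos (y axis), both as log2(FPKM + 1); the solid line marks equal levels and the dashed lines a difference of 1 either way. The 376 higher genes (red) crowd the low end of the 1-cell axis, while the 720 lower genes (blue) extend to high levels such as Paip1 and Myef2.

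The 376 higher genes were rare messages before cleavage. Their median level was 0.956 FPKM in 1-cell embryos, 4.65 in early 2-cell embryos and 26.9 in late 2-cell embryos, against 7.44, 6.60 and 13.3 for all members. Together they held 0.814% of summed FPKM before cleavage and 2.04% after it. The 720 lower genes started at a median of 18.7 FPKM, stood at 6.61 after cleavage and at 14.3 in late 2-cell embryos, and their share of summed FPKM was 10.3% before and 3.45% after. The 2 stages chose these groups, so their levels in those stages describe the choice.

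A pair of sequence sets is shown for the higher genes. The first belongs to a group of 2-cell-stage genes on chromosome 12, of which Gm21319, BB287469, Gm1995, Gm2016 and Gm2022 all lay in one stretch at 12:87772425-87896722 (GRCm38.p6). Gm4027, outside that stretch, stood at 0.245 and 6.18 FPKM across cleavage, BB287469 at 0.256 and 1.67, and Gm21319 at 0.0385 and 2.00. All 3 reached 1 FPKM after cleavage alone, and BB287469 and Gm21319 stayed under 5 FPKM. The 165 bases before the first listed RefSeq start are printed for these 3, not for Gm1995, Gm2016 or Gm2022, with GGATTA in capitals. For Gm4027 this start lies inside the gene model (12:87617797-87622288), so the printed bases do too. Read on the other strand this is a core bound by Obox-type homeodomain proteins. Each of these stretches holds it 1 time, and 7.16% of all 27025 RefSeq windows of 250 bases before to 50 after a start hold it on either strand.
Gm4027 (chr12:87618744-87618908, plus strand): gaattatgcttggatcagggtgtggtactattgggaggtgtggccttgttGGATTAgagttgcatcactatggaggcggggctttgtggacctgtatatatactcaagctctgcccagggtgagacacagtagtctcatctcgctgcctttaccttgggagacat
BB287469 (chr12:87816412-87816576, plus strand): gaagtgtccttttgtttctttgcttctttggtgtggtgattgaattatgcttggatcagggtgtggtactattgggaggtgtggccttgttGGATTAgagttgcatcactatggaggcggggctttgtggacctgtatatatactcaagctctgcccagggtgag
Gm21319 (chr12:87775756-87775920, minus strand): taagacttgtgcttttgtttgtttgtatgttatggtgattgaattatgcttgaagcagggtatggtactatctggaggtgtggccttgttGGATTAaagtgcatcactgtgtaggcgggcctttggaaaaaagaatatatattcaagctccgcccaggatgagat
The windows of Gm4027 and BB287469 share an identical run of 231 bases, so reads of these copies may not be assignable to 1 of them, and each copy's value is uncertain. The longest run either shares with Gm21319 is 23 bases.

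The second pair belongs to the metallothioneins Mt1 and Mt2, small proteins that bind zinc and copper. The stretch from 140 bases before to 28 after the first listed start of each is printed. The metal response element core TGCNCNC, on either strand, is in capitals. For Mt1 this start lies inside the gene model (8:94178883-94180327). This motif was searched after the values of these genes had been seen.
Mt1 (chr8:94178949-94179116, plus strand): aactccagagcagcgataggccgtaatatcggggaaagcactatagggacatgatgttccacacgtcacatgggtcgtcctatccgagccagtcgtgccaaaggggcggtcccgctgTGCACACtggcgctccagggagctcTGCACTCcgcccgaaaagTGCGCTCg
Mt2 (chr8:94172478-94172645, plus strand): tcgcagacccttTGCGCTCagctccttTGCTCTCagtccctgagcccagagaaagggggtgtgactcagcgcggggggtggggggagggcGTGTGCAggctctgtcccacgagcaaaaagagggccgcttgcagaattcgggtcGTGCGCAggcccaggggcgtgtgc
The core was found 3 times in the Mt1 stretch and 4 times in the Mt2 stretch. It is a common motif: 50.4% of all windows hold it at least 1 time and 6.95% at least 3 times. A comparison of motif shares between higher and lower genes is void and no share is given, because a promoter window could be matched to 73.1% of the higher and 78.9% of the lower genes, too few for it.

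Mt1 and Mt2 kept close step. Mt1 stood at 14.5 FPKM in 1-cell, 81.7 in early 2-cell and 1922 in late 2-cell embryos, and Mt2 at 14.8, 86.4 and 1809. Their differences across cleavage were 2.42 and 2.47, both among the 15 highest. Mtf1, the transcription factor that binds the metal response element, was 56.5 before and 46.1 after cleavage. The zinc exporter gene Slc30a1 stood at 3.74 and 2.05, a difference of -0.63.

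The other genes of the highest 15 named by symbol had diverse roles. Guca1a, which encodes a calcium-binding activator of guanylate cyclase, led them at 0.305 FPKM before and 12.3 after cleavage (difference 3.35), and 175 in late 2-cell embryos. Gnb1, the G protein beta subunit, stood at 11.7, 81.3 and 140, and Slain2, a microtubule plus-end protein, at 22.8, 149 and 67.9. Slain2 was thus highest at the early 2-cell stage among the 3 untreated stages. So were Spopl, a substrate adaptor of cullin-3 ubiquitin ligases (1.48, 16.7 and 13.3), and Spry1, an inhibitor of receptor tyrosine kinase signalling (0.651, 6.40 and 3.70). Abcd2, a peroxisomal fatty acid transporter, stood at 0.828 and 12.6 FPKM across cleavage and was listed at 0 in late 2-cell embryos.

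Several of the highest 15 serve mitochondria, nucleotide supply or ribosome assembly, and these were listed far higher again in late 2-cell embryos. Uqcc3, an assembly factor of respiratory complex III, stood at 1.99, 17.6 and 281 FPKM in the 3 stages. Tomm5, a small subunit of the outer-membrane import pore, stood at 0.901, 10.6 and 164. The ribosome assembly gene Nop16 stood at 1.38, 10.8 and 187, but its list mostly went the other way. Of 67 measured ribosome biogenesis and RNA polymerase I genes 1 was 2-fold higher and 16 lower (23.9%), with a median of -0.43. Prps1, which makes the activated ribose for nucleotide synthesis, stood at 2.56, 15.3 and 583, a first difference of 2.20. Over the 15 genes the median level was 1.99 FPKM at the 1-cell, 16.7 at the early 2-cell and 164 at the late 2-cell stage, and 144 in TSA-treated late 2-cell embryos. Of these 15, 6 overlap another annotated gene, and some of their reads may belong to it: Snn, for example, went from 0.765 to 8.07, but from 6.45 to 12.1 when the genes it overlaps are added.

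**Figure D2:**
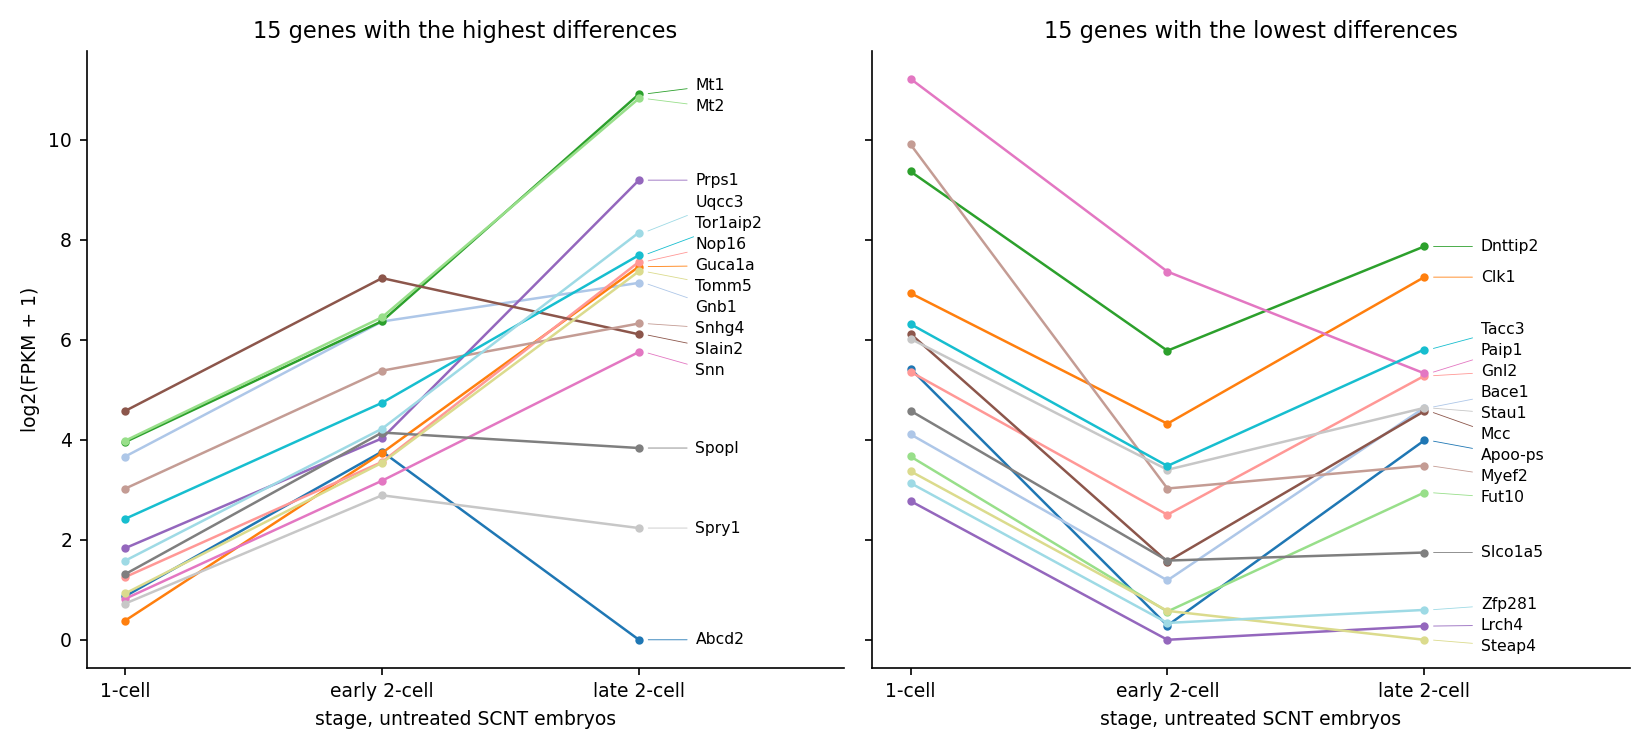
Level of each of the 15 highest (left) and 15 lowest (right) named genes as log2(FPKM + 1) in untreated 1-cell, early 2-cell and late 2-cell embryos, 1 value per stage. On the left Mt1, Mt2 and Prps1 reach the highest late levels while Abcd2 is listed at 0; on the right Clk1 and Dnttip2 stand higher again in late embryos, and Paip1 stands lower at each stage.

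Among predicted genes and RNA host genes, Mir155hg had the highest difference of the whole comparison, 7.35. It was listed at 0 before and at 162 FPKM after cleavage. Late 2-cell embryos had 0.517 without and 169 with TSA. The 2 late columns thus differ widely for this gene, and each is a single value. Mir155hg (16:84713023-84715245) is the host transcript of miR-155. Its mature arms, with the seed (bases 2 to 8) in capitals, are printed to identify the product; the table gives the host transcript and no value for the mature RNA.
mmu-miR-155-5p: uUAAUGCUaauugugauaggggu
mmu-miR-155-3p: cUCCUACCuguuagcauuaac
The host gene of miR-22, Mir22hg, went the other way, from 257 to 85.2 FPKM (difference -1.58), and stood at 130 in late 2-cell embryos.

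Other predicted genes near the top rest on how reads were divided between gene models. Gm38431 was listed at 0 before and 6.53 FPKM after cleavage, and Raver1, an RNA-binding protein gene it overlaps, at 4.83 before and 0 after. The sum over the 2 was 4.83 before and 6.53 after. The readthrough model Emc8-1190005i06rik stood at 0.00623 and 12.7 FPKM, and together with the genes it overlaps the sum was 66.8 and 95.8. Apoo-ps, a pseudogene of the mitochondrial protein gene Apoo, was among the lowest 15 with 41.8 FPKM before and 0.218 after, while Apoo itself stood at 37.2 and 131. Their sum was 79.0 before and 131 after, so the difference of -5.13 of the pseudogene is not matched in the pair.

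The lowest difference belonged to Myef2, a DNA- and RNA-binding repressor of the myelin basic protein gene, at 957 FPKM before and 7.14 after cleavage (-6.88). It stood at 10.2 in untreated and 104 in TSA-treated late 2-cell embryos. Paip1, which stimulates translation through poly(A)-binding protein, stood at 2377 FPKM before, 163 after and 39.1 in late embryos (593 with TSA). Dnttip2, a nucleolar processome factor, went from 657 to 53.9 and stood at 232 later. Both Paip1 and Dnttip2 had at least a 10-fold lower FPKM after cleavage, with ratios of 14.5 and 12.2 before over after.

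Of the remaining lowest 15, several act on RNA, the spindle or transcription. Stau1, a double-stranded RNA-binding protein of mRNA transport and decay, stood at 63.8 and 9.55 FPKM. Clk1, a kinase of splicing factors, was at 121 in 1-cell and 151 in late 2-cell embryos, with a difference of -2.61 across cleavage and hence a dip at the early stage. Tacc3, which stabilises spindle microtubules, showed the same kind of dip at 78.4, 10.1 and 54.8. Zfp281, a zinc finger regulator of pluripotency genes, stood at 7.78 and 0.263 and remained low later, at 0.512. Mcc, a colorectal tumour suppressor gene, was listed at 68.4, 1.95 and 22.8. Across the lowest 15 the median level was 41.8 FPKM before and 2.00 after cleavage, and 7 of them overlap another annotated gene. Bace1 loses most of its difference when the overlapping Rnf214 is added (32.2 before and 15.5 after). Lrch4 went from 5.84 to 0, but from 9.19 to 8.02 when the overlapping Gm20605 is added.

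Maternal oocyte products were examined by family. The subcortical maternal complex is a protein lattice under the egg membrane that early embryos need for division, and with the Nlrp genes its list had 17 measured members. Of these, 6 were 2-fold lower, 0 higher, and the median was -0.79. Ooep stood at 394 FPKM before and 140 after, Padi6 at 37.2 and 13.6, Nlrp5 at 177 and 72.9, and Tle6 at 13.8 and 6.24. Zbed3 and Nlrp9c did not share this, at 1424 and 1832 and at 2223 and 2282.

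F-box genes with WD repeats of an oocyte cluster on chromosome 9 were lower throughout. All 13 measured genes on that chromosome with symbols numbered from Fbxw13 to Fbxw28 had differences below 0, from -1.81 to -0.38, and 7 were 2-fold lower. Their summed level was 13106 FPKM before, 6249 after and 1289 in late 2-cell embryos. Fbxw24, 1 of the 10 most abundant genes in 1-cell embryos, stood at 5034 and 2281, and Fbxw26 had the lowest difference, from 430 to 122. Of the 6 measured Oas1 genes, relatives of the antiviral oligoadenylate synthetases, 3 were 2-fold lower: Oas1e (638 and 261), Oas1c (287 and 132) and Oas1h (123 and 48.4). Both families were picked after their values were seen, and their members are similar enough that reads may be shared among them.

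Egg coat genes showed a smaller difference. None of the 11 measured was 2-fold apart, and the median of the list was -0.38. Zp3, a sperm-binding coat protein, had a difference of -0.90, Zp2 stood at 37.2 and 31.1 FPKM, and Zp1 at 19.3 and 18.6. Over 75 measured maternal transcripts in a broader list, 15 were 2-fold lower (20.0%), 0 were higher and 23 lay above 0, with a median of -0.51. The summed level of the same list was nevertheless higher after cleavage, 94392 against 76186 FPKM, as its most abundant members were higher.

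Most of the 10 most abundant genes of 1-cell embryos were listed higher after cleavage, with Fbxw24 and Daam1, an actin-assembly formin (3618 and 2653 FPKM), as the exceptions. Spin1, a histone reader needed for meiotic resumption and the top gene in both columns, stood at 22919 and 30986 FPKM. Tcl1, an activator of Akt kinase, stood at 8024 and 11369, Omt2a at 6215 and 10862, and Omt2b, its close relative on chromosome 9, at 4029 and 7476. Pttg1, the securin that restrains the separation of sister chromatids, stood at 4823 and 9416, a difference of 0.96. The 100 most abundant genes held 38.1% of summed FPKM before and 44.2% after cleavage, and 25.0% in late 2-cell embryos. Genes above 500 FPKM in 1-cell embryos had a median difference of 0.08, with 17 of 159 2-fold lower (10.7%) and 1 higher (0.629%), and those between 20 and 100 FPKM had a median of -0.18.

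Regulators of stored and decaying mRNA were mostly lower or little different. Of 38 measured genes that control masked mRNA and poly(A) tails, 7 were 2-fold lower and 0 higher, with a median of -0.21. Cpeb1, which binds the cytoplasmic polyadenylation element, stood at 11.3 and 4.65 FPKM, Papolg, a poly(A) polymerase, at 16.4 and 3.05, and Igf2bp2, which protects mRNA, at 34.4 and 10.4. Among 50 measured deadenylation, decapping and uridylation genes 2 were higher (4.00%, near the background of 3.72%), 1 was lower and the median was -0.16. The 2 higher were Btg1 (20.9 and 56.8) and Tob1 (8.84 and 25.9), the BTG/TOB adaptors that bring deadenylases to mRNA, and the lower one was the exosome subunit Exosc9 (9.71 and 3.05), which overlaps Ccna2 (sum 73.8 and 91.9).

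**Figure D3:**
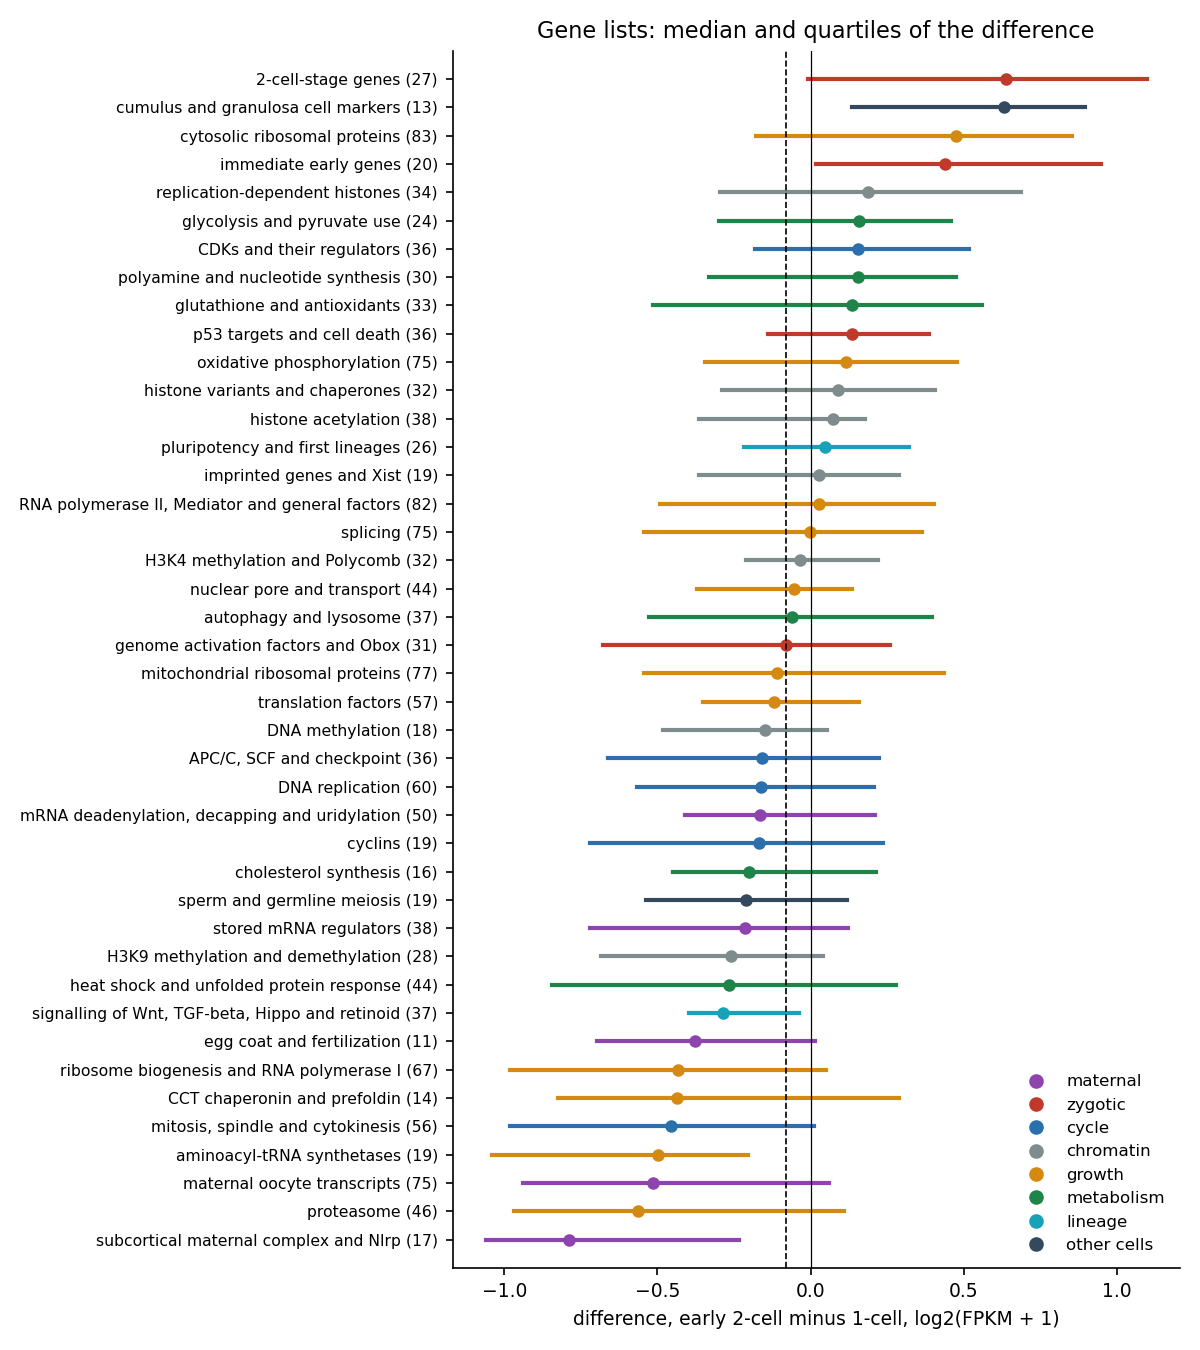
Median (dot) and quartiles (bar) of the difference in log2(FPKM + 1) for each gene list with at least 5 measured members, given in brackets; colours mark the kind of list, the dashed line the median of all members and the solid line 0. The subcortical maternal complex list lies lowest at -0.79 and the 2-cell-stage list highest at 0.64, a value that ranged from 0.11 to 1.01 over the alternative settings and includes 10 genes that reach 1 FPKM after cleavage alone.

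Cell cycle genes were followed through the division itself. Of 19 measured cyclins 3 were 2-fold lower and 0 higher, with a median of -0.17 that was slightly above 0 in 1 of 7 alternative settings. Ccnb1, the main mitotic cyclin, stood at 1404 and 1523 FPKM, and Ccnb2 at 258 and 347. Ccnb3, a cyclin of meiotic anaphase, stood at 13.1 before, 2.20 after and 0.371 in late embryos. The other lower cyclins were Ccno (34.7 and 13.5) and Ccnf, the F-box cyclin (5.34 and 1.52). Ccna2 stood at 64.1 and 88.9, Ccnd3 at 2.94 and 5.39, and Ccne1, the cyclin of S-phase entry, at 3.06 and 5.14 and then at 324 in late 2-cell embryos.

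The kinases that cyclins activate, and their inhibitors, went different ways. Cdk1 stood at 28.9 FPKM before and 12.9 after cleavage, and at 174 in late embryos. Its activating phosphatase Cdc25a had a difference of -1.43, and the mitotic kinase Plk1 stood at 36.9 and 18.3. On the higher side Cdkn3, a phosphatase that acts on cyclin-dependent kinases, stood at 0.757 and 6.68 (difference 2.13), Cdkn1a, the kinase inhibitor p21, at 4.27 and 21.1 (difference 2.07), and Rbl2, a pocket protein of quiescence, at 0.275 and 1.86. Cks1b, a kinase subunit, stood at 605 and 1206, just under 2-fold. Over the 36 measured members 3 were higher and 2 lower. Of the 3 higher, Cdkn3 and Rbl2 reached 1 FPKM after cleavage alone, so this count is a description.

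Part of the mitotic machinery was lower after the division. Of 56 measured mitosis, spindle and cytokinesis genes 13 were 2-fold lower (23.2%), 0 were higher, 15 lay above 0 and the median was -0.46. The summed level of the list was higher after cleavage, 13388 against 9916 FPKM, of which Pttg1 held 9416 and 4823. By role, the lower genes took in condensin subunits (Ncapg at 214 and 60.6 FPKM, Ncaph at 30.4 and 9.78, Smc4 at 54.8 and 26.0). They took in kinesins and midzone proteins (Kif22 at 21.4 and 5.09, Kif23 at 71.2 and 29.0, Prc1 at 144 and 64.3). Aurkb, the kinase of the chromosomal passenger complex, stood at 9.99 and 2.48, and Cenpc1, which anchors the kinetochore, at 8.77 and 0.763. Nusap1, a spindle protein, was the most abundant of them at 869 and 232. Most of these stood higher again in late 2-cell embryos, Aurkb at 123, though Ncapg and Ncaph stood at 63.4 and 10.8, near their early 2-cell level.

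The checkpoint and ubiquitin ligase genes that time anaphase gave 5 lower and 0 higher of 36 measured. Fbxo5, an inhibitor of the anaphase-promoting complex, stood at 78.6 FPKM before, 14.0 after and 113 later. Bub3 stood at 150 and 47.7, and Bub1b at 18.5 and 7.27, both sensors of unattached kinetochores. Of 60 measured replication genes 6 were lower and 1 higher, near the background on the lower side (10.0% against 7.12%). Gins1, part of the replicative helicase, stood at 68.9 and 10.5, Orc1 of the origin recognition complex had a difference of -2.45 (sum with the genes it overlaps 79.3 and 45.1 FPKM), and Prim1, the primase, stood at 37.3 and 8.79. Pole, the leading-strand polymerase, was the higher one at 3.01 and 7.05.

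Genes of the embryo's own early transcription were next. In the 2-cell-stage list 27 members passed the filter, 30 were under 1 FPKM in both stages, and 12 were not found under their symbols. A member listed near 0 in 1-cell embryos passes only if it is high after cleavage, so the counts of 8 higher and 2 lower are a description. Zfp352, a retroposon-derived zinc finger gene of 2-cell embryos, stood at 6.38, 26.0 and 129 FPKM in 1-cell, early and late 2-cell embryos. Gm8300 stood at 2.05, 13.9 and 70.1, and Gm2022 at 0.871, 11.2 and 43.3. Zscan4d and Zscan4c, telomere regulators used as 2-cell markers, were low throughout, at 4.06 and 2.34 and at 1.23 and 0.484 across cleavage. The 2 lower members were Arg2, the mitochondrial arginase (215 and 55.3), and Sp110, a nuclear body protein (52.3 and 24.3).

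Candidate activators of the genome had no common direction: of 31 measured 1 was 2-fold higher and 1 lower. Crxos, a homeobox gene, stood at 0.482 FPKM before, 3.33 after and 184 in late embryos. The Obox homeobox genes were abundant in both stages, Obox5 at 2100 and 3253, Obox1 at 1357 and 1742, Obox7 at 676 and 832, and Obox2 at 703 and 379. The subunits of the CCAAT-binding factor NF-Y had close differences, Nfya at -0.78 (26.5 and 15.1), Nfyb at -0.84 (23.7 and 12.8) and Nfyc at -0.71 (43.4 and 26.1), and none reached 2-fold. The nuclear receptor Nr5a2 stood at 19.5 and 13.8, and Yap1, a Hippo coactivator, at 68.7 and 96.8.

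Immediate early genes, which respond within minutes to growth signals or stress without new protein, gave 5 higher and 0 lower of 20 measured, and 22 listed genes were under 1 FPKM. Of the 5 higher, 2 reached 1 FPKM after cleavage alone, and 27.1% of all members under 1 FPKM in 1-cell embryos were 2-fold higher, so this count is a description. Mafk, a small leucine zipper protein, stood at 1.19 and 4.28 FPKM, Ier5 at 1.34 and 4.38, and Ier2 at 0.859 and 2.94. The classic members were not among the higher: Egr1 stood at 4.46 and 4.41, Dusp1 at 33.2 and 34.2, while Fos was under 1 FPKM in both stages. In a separate list of p53 targets and cell death, 4 of 36 measured genes were 2-fold higher (11.1%) and 0 lower, with a median of 0.14. The 4 included Mcl1, an inhibitor of apoptosis (1.73 and 5.86), and Diablo, which releases caspases from inhibition (10.9 and 24.3). Plk2, a stress-induced kinase, stood at 3.39 and 7.26.

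Chromatin genes differed in both directions within a family. Of 34 measured replication-dependent histone genes 4 were 2-fold higher and 3 lower, and 7 of the 34 reached 1 FPKM in early 2-cell embryos alone, among them 3 of the 4 higher. All 4 higher genes encode H2A, of which 8 genes were measured and 2 were lower, a grouping made after the values were seen. Hist1h2ao stood at 0.457 FPKM before, 3.48 after and 51.4 in late embryos, and Hist1h2ag at 1.47, 4.36 and 53.4. The germline histones Hist1h2aa and Hist1h2ba, found in oocytes and testis, stood at 31.1 and 10.1 and at 27.2 and 12.6, and stayed low later (4.72 and 4.41). Most replication-dependent histone mRNA has no poly(A) tail, so a poly(A) library holds an unusual part of it. Among variants, H2afz, which marks promoters, stood at 99.7 and 234, and later at 1746. H3f3b, 1 of the genes of the H3.3 variant, stood at 7520 and 9955.

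Chromatin methylation lists held few genes 2-fold apart, and their lower shares lay on either side of the background of 7.12%. Of 32 measured H3K4 methylation and Polycomb genes 1 was 2-fold lower (3.13%), the repressive complex subunit Pcgf1 (432 and 172 FPKM). In this list 0 were higher and 15 lay above 0, with a median of -0.04 that changed sign in 2 of 7 settings. Of 28 measured H3K9 methylation and demethylation genes 3 were 2-fold lower (10.7%) and 0 higher. The median of these 28 was -0.26 and ranged from -0.35 to -0.13 over the alternative settings. Setdb1, an H3K9 methyltransferase, stood at 92.5 and 39.3 FPKM, and Ehmt1, the partner of G9a, at 11.4 and 5.19. Dnmt1, the maintenance DNA methyltransferase, stood at 39.7 and 7.60, and Zfp57, which protects imprints, at 332 and 121. Tet3, the oxidase of the zygotic genome, stood at 591 and 366, and Dppa3, which guards maternal methylation, at 3321 and 4830. Of 38 measured acetylation genes 1 was higher and 2 lower: Mta2 of the NuRD deacetylase complex (0.763 and 2.66), Hat1, which acetylates new histone H4 (171 and 65.7), and Gatad2a, also of NuRD (61.9 and 16.5).

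Of 19 measured imprinted genes 3 were 2-fold higher (15.8%) and 1 lower (5.26%). Of the 3 higher, 1 reached 1 FPKM after cleavage alone, and the lower one reached it before cleavage alone. These counts are therefore a description. Phlda2, a regulator of placental growth, stood at 10.0 FPKM before, 27.3 after and 2.23 in late embryos. Ascl2, a trophoblast factor, stood at 0.365 and 2.79, and Snurf at 3.09 and 8.59. Snurf is made from the same transcript as Snrpn (13.7 and 18.2), so its value depends on how reads were split. Grb10, an adaptor that dampens insulin signalling, was the lower one at 9.52 and 0.882. Among 26 measured genes of pluripotency and first lineages Krt18, a keratin of the early epithelium, was the sole one 2-fold apart, at 0.283 and 3.02, and Nanog, Sox2 and Cdx2 were under 1 FPKM in both stages.

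Cytosolic and mitochondrial ribosomal protein genes differed in their share of 2-fold higher genes. Of 83 measured cytosolic ribosomal protein genes 18 were 2-fold higher (21.7%) and 3 lower (3.61%), with a median of 0.47. Rps3 stood at 8.89 and 30.2 FPKM and Rps19 at 4.87 and 15.2, while Rps4x stood at 20.4 and 7.02 and Rpl17 at 45.1 and 19.4. These genes have many processed pseudogenes, so their counts are uncertain. Mitochondrial ribosomal protein genes had 3 higher (3.90%) and 8 lower (10.4%) of 77, near the background of 3.72% and 7.12%. Mrpl49 (3.69 and 12.8) was among the higher and Mrps31 (40.3 and 10.0) among the lower. The median of the 77 was -0.11, against -0.08 for all members, and changed sign in 1 of 7 settings.

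Initiation factors and tRNA charging enzymes were more often lower than higher, as were all members (7.12% against 3.72%). Eif3m, Eif3e and Eif3c, subunits of the scaffold that loads the small ribosomal subunit, stood at 50.8 and 8.32, at 92.1 and 17.7, and at 12.3 and 3.22 FPKM. Of 57 translation factors 8 were 2-fold lower (14.0%) and 1 higher (1.75%). Their median was -0.12, near the -0.08 of all members. Of 19 measured aminoacyl-tRNA synthetases and their scaffold genes 6 were 2-fold lower (31.6%), 0 higher, and 17 lay below 0. Rars, the arginine enzyme, stood at 9.14 and 2.05, Eprs, the glutamate and proline enzyme, at 50.3 and 21.7, and Aimp1, a scaffold protein, at 8.16 and 2.40. The RNA polymerase I factors Taf1a and Taf1b, which select the ribosomal RNA promoter, stood at 78.6 and 17.3 and at 26.1 and 5.08.

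Protein folding genes were more often lower than higher, as were all members (7.12% against 3.72%). Of 44 heat shock and unfolded protein response genes 10 were 2-fold lower (22.7%) and 2 higher (4.55%). The disulfide isomerases of the endoplasmic reticulum Pdia3, Pdia4 and Pdia6 stood at 76.9 and 23.4, at 25.4 and 7.67, and at 12.7 and 4.70 FPKM, and the co-chaperone Dnajc3 at 112 and 29.9. The cytosolic chaperone Hsp90aa1 stood at 1203 and 468. The higher genes were Dnajb9, an endoplasmic reticulum co-chaperone (9.91 and 22.9), and Hspa2, a germline chaperone (3.53 and 10.3). Of 14 CCT and prefoldin subunits Cct3 (73.1 and 29.4) and Cct4 (16.9 and 6.09) were 2-fold lower, whereas Cct7, of the same ring, stood at 19.6 and 28.9.

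Counts varied among the metabolic lists. Glutathione and antioxidant genes gave 5 higher and 7 lower of 33. Of these 5, 3 reached 1 FPKM after cleavage alone, and 27.1% of all members under 1 FPKM in 1-cell embryos were 2-fold higher. The higher count is therefore a description. Gstm1, a glutathione transferase, stood at 0.479 FPKM before, 4.21 after and 953 in late embryos, Prdx6 at 0.608 and 3.17, and Mgst3 at 1084 and 2264. Glrx, a glutaredoxin, stood at 87.3 and 37.5, Txnip, an inhibitor of thioredoxin, at 16.6 and 5.18, and Txnrd1 at 19.2 and 7.69. Of 24 measured glycolysis and pyruvate genes 2 were 2-fold higher (8.33%) and 0 lower. Ldha, which makes lactate, stood at 4.20 and 13.2, and Hk2, a hexokinase, at 2.43 and 6.47. In cholesterol synthesis 3 of 16 measured genes were 2-fold lower (18.8%) and 0 higher. Hmgcs1, the hydroxymethylglutaryl-CoA synthase, stood at 53.1 and 21.8, and Fdft1, the squalene synthase, at 109 and 43.0. Of 37 autophagy and lysosome genes 3 were 2-fold higher and 4 lower. The higher were Map1lc3b (11.1 and 29.7) and Gabarap (4.13 and 10.8), which coat the growing autophagosome, and the lysosomal protease Ctsl (8.01 and 26.4). Map1lc3b overlaps another gene, and the sum of both was 44.2 and 63.6. The lower were Lamp1, a lysosomal membrane protein (42.4 and 14.1), the protease Atg4b (8.15 and 3.19), and the kinase complex genes Atg14 (7.02 and 2.68) and Pik3c3 (5.56 and 2.15).

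Gene size went with the difference across the table. Of 409 genes that span less than 2 kb from start to end of the RefSeq model 81 were 2-fold higher (19.8%), and of 1490 genes of 100 kb or more 7 were (0.470%). The shares between these fell in order, from 11.3% at 2 to 5 kb to 1.35% at 50 to 100 kb. The median difference was 0.44 in the shortest and -0.18 in the longest class, and the lower share had no such order, being 5.13% in the shortest class, 9.07% at 10 to 20 kb and 5.10% in the longest. The median span was 5683 bases for the higher genes, 24963 for the lower and 25394 for all members. Spearman's rho between the difference and the span was -0.22 across 10095 genes, as a description, since genes share the same 2 columns. The shortest and longest classes had 19.3% and 0.470% without ribosomal protein genes, and 13.7% and 0.482% without predicted genes. Keeping genes that reach 5 FPKM gave 16.2% and 0.334%.

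**Figure D4:**
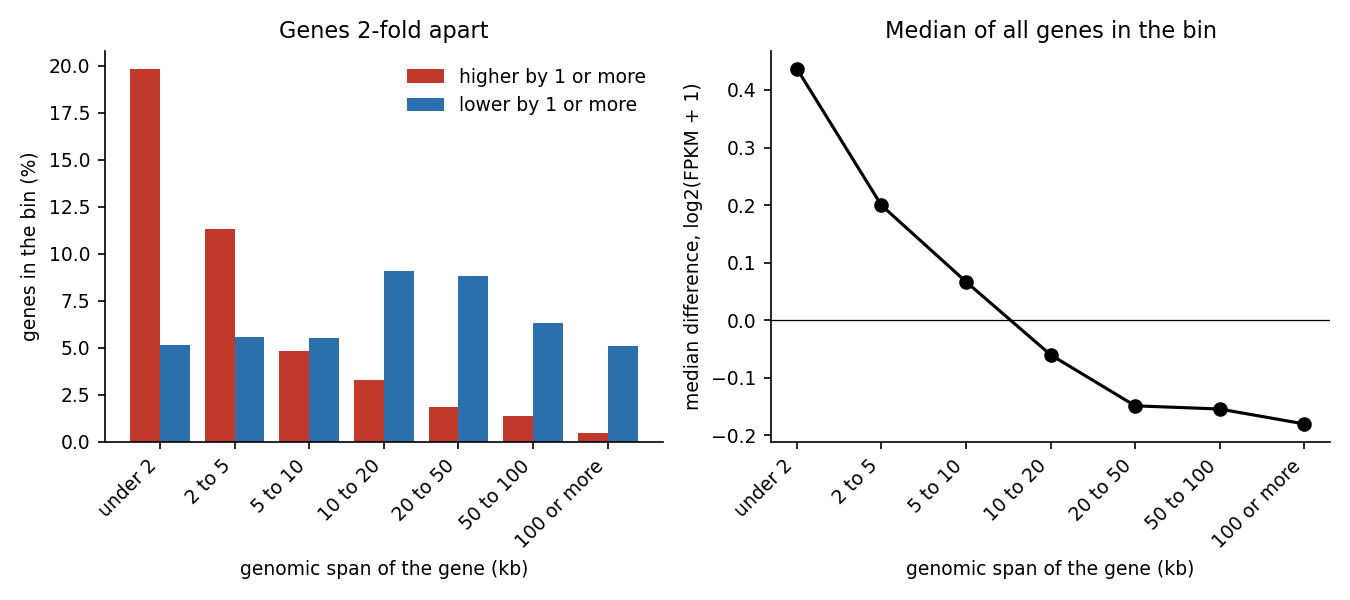
Left, share of genes in each class of genomic span (kb) that were 2-fold higher (red) or lower (blue) after cleavage, in percent. Right, median difference in log2(FPKM + 1) of all genes in the class; the higher share falls from 19.8% to 0.470% and the median from 0.44 to -0.18.

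The relation to span was also looked at inside the functional lists, and its strength varied. Of the 32 lists with at least 20 members with a span, 31 had a rho below 0, from -0.52 for ribosome biogenesis to values near 0 for replication-dependent histones (-0.0045), H3K4 methylation and Polycomb (-0.05) and nuclear pore genes (-0.06). Glycolysis had 0.27, and the mitochondrial ribosomal list, with a rho of -0.36, had a median of 0.03 under 10 kb and 0.19 in its 10 genes of 20 kb or more. Among 75 splicing genes rho was -0.44. The 4 genes that were 2-fold higher are small proteins of the splicing particles, all under 5 kb: Snrpd2 at 26.5 and 101 FPKM, Snrnp25 at 17.1 and 65.4, Lsm2 at 73.0 and 194, and Lsm7 at 116 and 288. Other short genes were not, such as Lsm5 with a difference of -0.62 and Lsm3 with -0.07. Among the 7 lower genes were Snrnp70 at 58.5 and 19.1 and Sf3a3 at 28.9 and 8.04, both between 10 and 20 kb. The splicing list as a whole had a median of 0.00, with 27 genes under 10 kb at a median of 0.33 (19 above 0) and 23 genes of 20 kb or more at -0.14 (9 above 0, such as Hnrnpc at 0.42).

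Transcription, respiration and ribosome assembly genes showed such a split to different extents. In the RNA polymerase II and Mediator list the 33 genes under 10 kb had a median of 0.27 and the 32 of 20 kb or more one of -0.25. Med29, in the shorter class, stood at 2.46 and 12.1 FPKM, and the second-largest polymerase subunit Polr2b, in the longer class, at 76.4 and 21.3. Between the classes, the small polymerase subunit Polr2f (10450 bases) stood at 140 and 316 and Med17 (19556 bases) at 49.9 and 9.36. Med8, also under 10 kb, went against the split at 75.6 and 20.0. Ribosome biogenesis genes had medians of 0.35 under 10 kb and -0.86 from 20 kb. Oxidative phosphorylation genes had medians of 0.16 in 54 genes under 10 kb (33 above 0) and -0.23 in 10 from 20 kb (5 above 0). Ndufa13 stood at 62.2 and 130, and Sdhd, at 11.2 and 2.87, was a short gene that was lower. Proteasome genes did not follow the split, with medians of -0.65 and -0.46 and a rho of -0.07. Transcript length and exon number were not used here, and their part in this order was not tested.

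**Figure D5:**
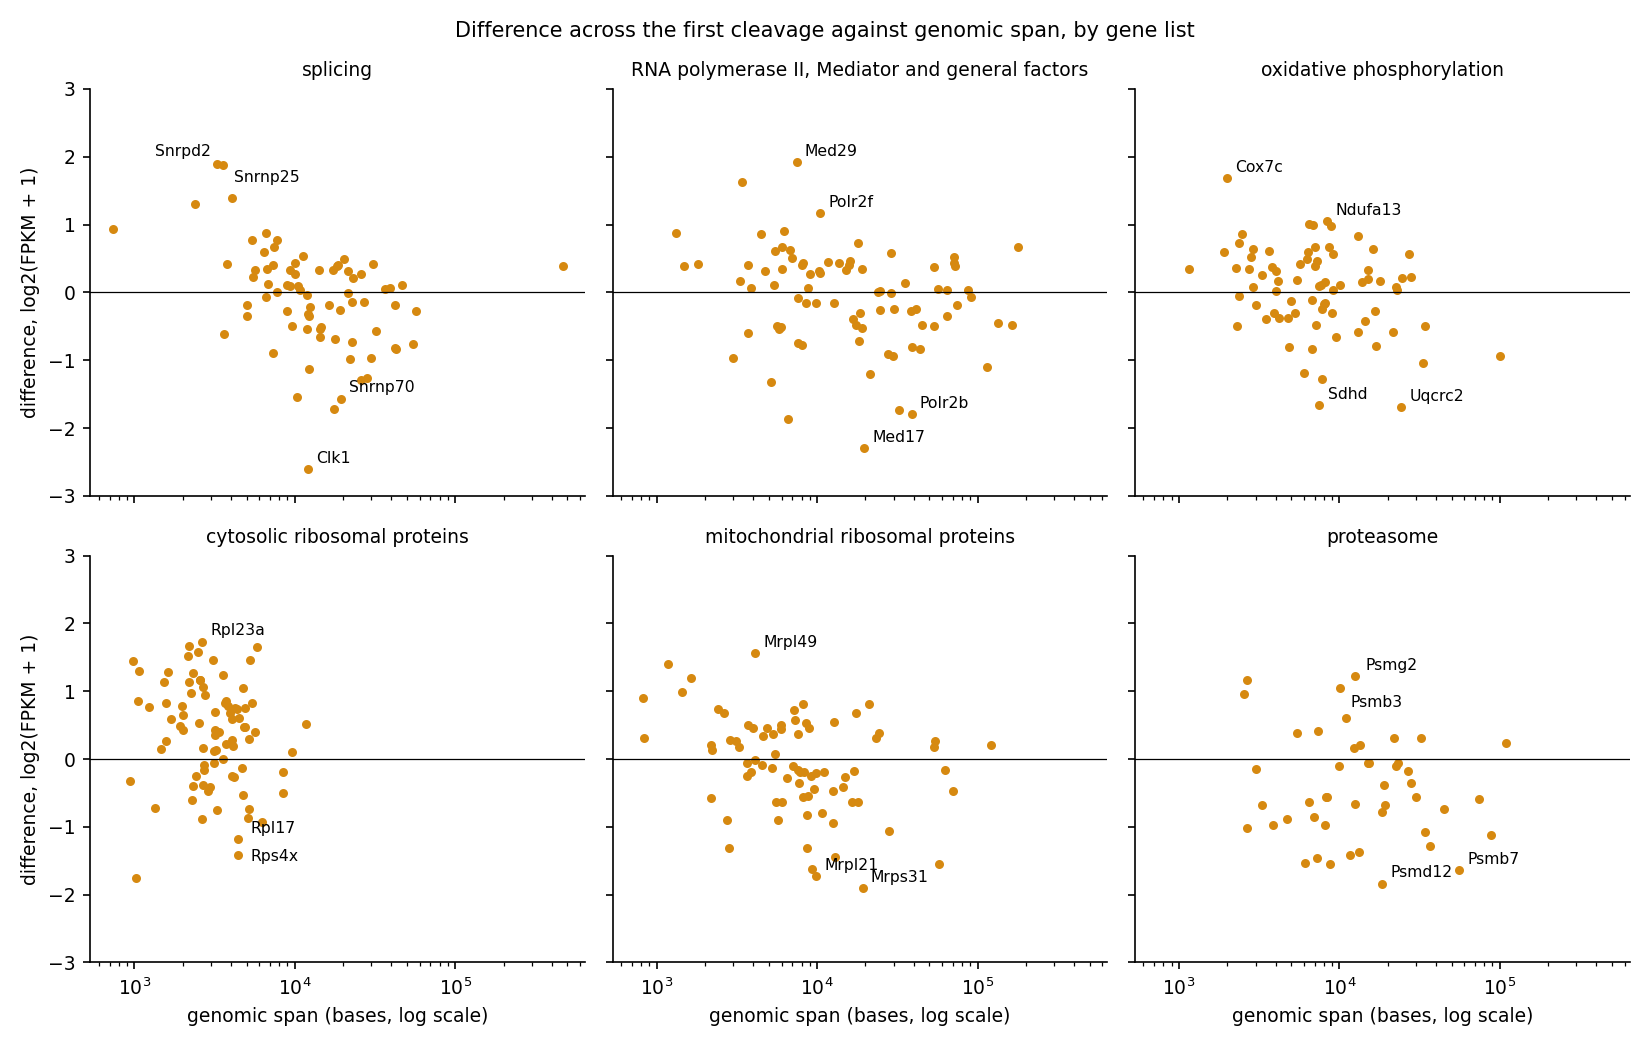
Difference in log2(FPKM + 1) (y axis) against genomic span in bases on a log scale (x axis) for the members of 6 gene lists, 1 point per gene. In splicing the short genes Snrpd2 and Snrnp25 lie near 1.89 and 1.88 and the longer Snrnp70 at -1.57; proteasome genes lie mostly below 0 at every span.

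The identity of the samples was checked against cell type markers. All 8 oocyte and early embryo markers were present in both stages, from Tle6 (13.8 and 6.24 FPKM) to Dppa3 (3321 and 4830). Of 45 cumulus and granulosa cell markers 13 passed the filter, 3 of them 2-fold higher (Gja1, a gap junction protein, at 3.29 and 12.0, Vim, an intermediate filament protein, at 1.90 and 6.10, and S100a10), and their summed level was 66.6 FPKM before and 87.7 after. Among the defining markers Foxl2, Amhr2 and Nr5a1 were below 0.1 FPKM in both stages and Fshr, the follicle-stimulating hormone receptor, at 0.352 and 0.294. Cyp19a1, the aromatase gene, stood at 8.31 and 6.26, Has2 at 2.82 and 1.34, and Tnfaip6 at 1.59 and 3.01. Of 19 blood markers 2 passed, Hba-a2 at 0.229 and 4.77 and Cd68 at 0.834 and 1.14. Ptprc and Hbb-bs were at or near 0, as was Hba-a1 at 0 and 0.00712, which stood at 32.9 in late 2-cell embryos. The part of these markers in the differences above was not tested.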

How the data were processed

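The deposited table holds log2(FPKM + 1) per gene, per the file headers, with 1 column per group and no libraries; FPKM divides fragments by transcript length and library total, which makes every value relative to the others of that column. The submitters' processing notes name, without roles, mm10, Cufflinks, Bowtie2 2.3.4.3, HISAT2 2.1.0, deepTools 2.5.7, StringTie 1.3.4 and SAMtools 1.7. What annotation was used, and how a group's libraries became 1 column, is not given in the sources used here. The 1-cell column is named by 13 h, and its match to the 1-cell group is inferred from the collection times in the labels' protocols. Of the 6 columns 4 were used, and 2 matched no RNA sample in the labels.

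Genes with at least 1 FPKM in either stage were kept, with the pseudocount of 1 as deposited, and the late values were read from their own columns. With 1 value per group no test was run, and a difference of 1 is a description of size. Gene lists, 43 in all, were described by counts and medians; they and the members were chosen with earlier results of these data known. Named genes were the 15 highest and 15 lowest reaching 5 FPKM in either stage, 5 each of predicted or small RNA genes, up to 4 members per list by difference and 2 by level, all cyclins, the 10 most abundant, and 5 on each side of the filter. Genes named beyond this rule were chosen after their values were seen. Sequences, spans and coordinates came from RefSeq tables of GRCm38.p6, with 10095 members matched for span and 8111 for promoters. Promoter windows used the first listed start of each gene, and 22862 of 27025 genes had 1 listed start. Counting was tested on simulated data. Python 3.11.15, pandas 2.3.3, numpy 2.4.6, scipy 1.17.1 and matplotlib 3.10.9 were used.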

Additional observations from a re-analysis of the deposited data

How the results depend on the processing

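No paired analysis was possible because the columns carry no replicate numbers, and leaving out a replicate was not possible with 1 value per group. The 376 higher genes became 713 with a pseudocount of 0.1, 90 with a pseudocount of 5 and 182 among genes with at least 5 FPKM. The 720 lower genes became 1152 with a pseudocount of 0.1 and 334 with a pseudocount of 5. Higher genes made up 34.3% of those 2-fold apart, 43.7% after median-ratio scaling, 45.7% after quantile normalization, 31.5% with equal column sums and 21.2% with a pseudocount of 5. The median of all genes moved from -0.08 to 0.03 under quantile normalization. Over the 7 alternatives no named gene that was 2-fold apart changed sign, and 25 of 286 named genes crossed the 2-fold line with a pseudocount of 5. The list of blood markers had no value among genes with at least 5 FPKM. Depth is unknown, so no detection limit can be given.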
